A study of Drosophila melanogaster with 19 samples.

Results

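The vacuolar proton pump genes of Drosophila melanogaster were taken as the protein-coding genes of the Release 6 annotation whose symbol starts with Vha. There are 33 of them among 13922 protein-coding genes on chromosomes X, 2, 3 and 4, with 2 on the X and 31 on the autosomes. The question asked here is where MSL2, a protein made in males for the complex that compensates X dosage, was called at these genes. Peak lists from chromatin immunoprecipitation followed by sequencing (ChIP-seq) were used, made from whole adult males aged 3 days, of the strain Oregon-R. The compared groups are males labelled with the genotype wt and males labelled with the genotype M1[wt], each with 1 listed MSL2 sample of the 19 samples in the series. The labels say nothing more of the M1[wt] line. In the series it stands beside lines in which MSL1, the scaffold of the complex, lacks part of its N-terminus. A whole fly holds every tissue, so a peak does not tell which cells it comes from.

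The V-ATPase is a rotary pump that spends ATP to move protons across membranes. Its cytosolic V1 sector hydrolyses ATP, and its membrane sector V0 carries the protons. It acidifies lysosomes, endosomes and synaptic vesicles in nearly all cells, and in insects it also energises ion transport across epithelia such as the Malpighian tubule. Several subunits are encoded by a broadly used gene and by paralogues used in few tissues, many of them in the testis. From such background knowledge 15 of the 33 genes were classed as broadly used, 16 as tissue-restricted paralogues, and VhaM9.7-a and VhaAC45RP were left unclassed. Expression was not measured here.

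The wt list held 3788 peaks on these chromosomes, 1615 of them on the X, and the M1[wt] list 3935, with 1595 on the X. The strength of a peak is the −log10 p that the authors' list gives it, the lower of the values from 2 replicate calls. Its median was 22.5 in the wt list and 35.1 in the M1[wt] list. Deeper sequencing raises this value and the depth is unknown, so strengths are ranked within a list, and values from both lists are set side by side without a fold change. A gene counted as called where at least 1 summit fell inside its span or no more than 1000 bases beyond either end. With no replicate samples and a chosen gene family, no test was run, and the 95% intervals on shares (exact, Clopper-Pearson) cover counting error alone.

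A peak was found at 11 of the 33 pump genes in wt and at 11 in M1[wt] males, with 9 genes in common and 13 in either list. Of all protein-coding genes 27.3% had a peak in wt males, 28.5% in M1[wt] males, 22.7% in both lists and 33.1% in either. On the autosomes it was 10 of 31 genes in each list, or 32.3% (exact interval 16.7 to 51.4%). Of all 11725 autosomal protein-coding genes, 22.3% had a peak in wt and 24.1% in M1[wt] males, both inside that interval. In both lists at once, 8 of the 31 autosomal pump genes had a peak (25.8%, exact interval 11.9 to 44.6%), against 18.3% of autosomal genes. On the X, 1 of the 2 pump genes had a peak in each list, where 53.7% of 2197 X-linked genes had one in wt males, 52.0% in M1[wt] males and 46.1% in both. A pair of genes is too few to set against those shares (exact interval 1.26 to 98.7%).

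Within the family the peaks lay mostly at the broadly used subunits. On the autosomes 9 of 14 broadly used genes had a peak in wt and 9 in M1[wt] males, a share of 64.3% in each list (exact interval 35.1 to 87.2%). Of the 15 autosomal tissue-restricted paralogues 1 had a peak, the same gene in each list, or 6.67% (exact interval 0.169 to 31.9%). The classes were set with earlier results of these data known, so the contrast is not independent of those results. The difference between the classes was not tested. The broadly used genes were also longer. Their median length on the autosomes was 3466 bases against 1300 for the restricted paralogues, and 2099 for all autosomal genes. Peaks were called at 12.4% of autosomal genes shorter than that median and at 32.2% of the others in wt males, and at 14.3% and 33.7% in M1[wt] males. Among the shorter pump genes 3 of 5 broadly used and 1 of 10 restricted genes had a peak in each list. Among the longer ones it was 6 of 9 and 0 of 5. The part of gene length in the contrast was not tested beyond this split.

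**Figure D1:**
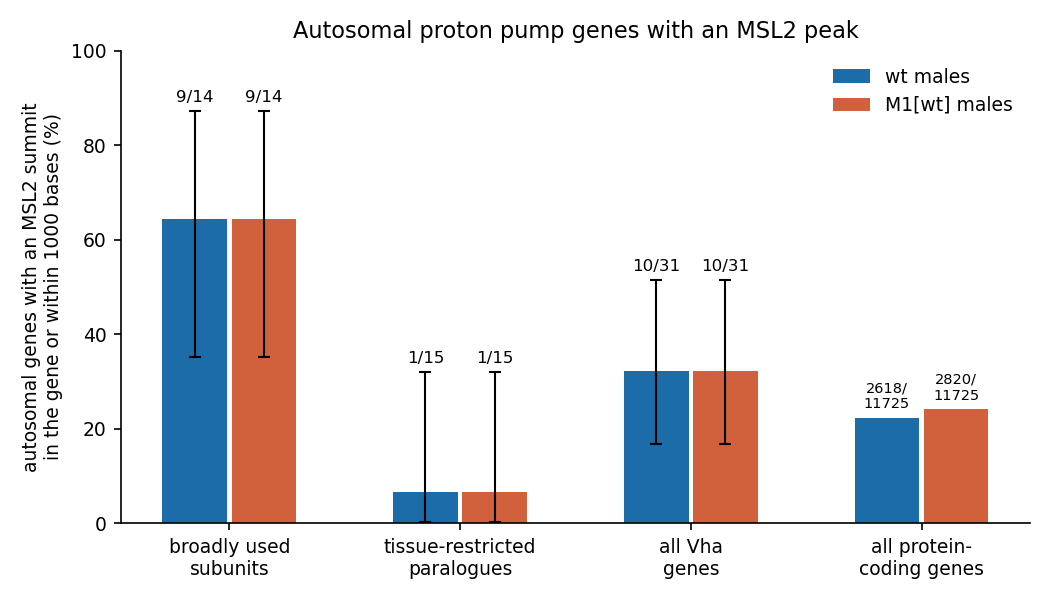
Percentage of autosomal genes with an MSL2 summit in the gene or within 1000 bases, for broadly used pump subunits, tissue-restricted paralogues, all Vha genes and all protein-coding genes, in wt males (blue) and M1[wt] males (orange). Bars are shares, whiskers exact 95% intervals of the Vha shares, and the numbers above are genes with a peak of all genes in the class; 9 of 14 broadly used and 1 of 15 restricted genes had a peak in each list.

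In the V1 sector, the catalytic head is built of the A and B subunits. Vha68-2, the main A subunit gene (2L:12974322-12978607), had 1 peak in each list just outside its lower-coordinate end. The strength was 35.8 in wt males, with the summit 122 bases outside the gene (2L:12974013-12975032), and 51.5 in M1[wt] males, with the summit 140 bases outside (2L:12974004-12974576). No other protein-coding or lncRNA gene lay within 1000 bases of these summits. Vha68-1, another A subunit gene (2L:13000770-13004107), was reached by a weak peak, of 9.55 in wt and 24.4 in M1[wt] males. Its summit lay 568 bases from the gene in wt males, inside mTor, the gene of the growth-controlling kinase TOR. In M1[wt] males it lay 307 bases from Vha68-1, between the genes and closer to mTor. Vha55, the only B subunit gene of the family, had no peak in either list, and the nearest summits were 26299 and 26283 bases away. Both broadly used A genes were thus reached in each list, and the B gene in neither.

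The peripheral stalks and the C and H subunits hold V1 to V0 and control their coupling. Vha13, the G subunit gene (3R:19643018-19644386), had the strongest peak of the family and no counterpart in M1[wt] males. In wt males the peak 3R:19644068-19644672 reached 447, rank 124 of the list, with 669 and 447 in the replicate calls and its summit 65 bases outside the higher-coordinate end. A weaker wt peak of 13.5 lay on the other side, 757 bases from Vha13 and inside subdued. The nearest M1[wt] peak was 2676 bases from the strong wt peak. The lists hold no signal between peaks, so the absence of a peak does not measure a loss of MSL2 there.

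Vha26, the E subunit gene (3R:5591763-5595356), had a peak inside the gene in both lists, with summits 15 bases apart. It stood at rank 2427 in wt males, with a strength of 16.4 (replicate calls 21.5 and 16.4), and at rank 576 in M1[wt] males, with 164 (replicate calls 164 and 237). Of the wt peaks 35.9% were weaker than that of Vha26, and of the M1[wt] peaks 85.4%. Vha13 and Vha26 thus stood high in different lists, Vha13 in that of wt males and Vha26 in that of M1[wt] males. The summits at Vha26 lay 611 and 626 bases inside the lower-coordinate end and also within 1000 bases of noi, and the intervals were wide, at 1809 and 2392 bases.

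Vha44, the C subunit gene and the longest of the family (2R:16324813-16336637, 11825 bases), had a peak in wt males alone. Its strength was 21.5, and its summit lay 72 bases outside the higher-coordinate end, inside the overlapping gene Hmgs. The M1[wt] summit nearest to Vha44 was 54008 bases from the gene. VhaSFD, the H subunit gene (2L:16722883-16727826), had a peak in M1[wt] males alone, with a strength of 17.9 and its summit inside the gene. Among the rotor genes, Vha14-1, the F subunit gene (2R:15679426-15680084), had a peak in M1[wt] males alone. It had a strength of 16.3, and its summit lay 422 bases from Vha14-1 and 48 from Gmppa. Vha36-1, the D subunit gene, had none, and its nearest summits were 26995 and 27004 bases away. Apart from the strong Vha13 peak, the pump genes called in a single list had peaks below the median strength of that list.

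In the V0 sector, all 5 broadly used genes had a peak in both lists (exact interval 47.8 to 100%), while 5 of the 9 broadly used V1 genes had one in each list and 3 in both. Of all protein-coding genes 22.7% had a peak in both lists, with 46.1% of those on the X and 18.3% of those on the autosomes. Of the 5 V0 genes VhaAC39-1 is X-linked, while the 9 V1 genes are all autosomal. With the restricted and unclassed members counted too, 6 of 18 V0 genes and 5 of 13 V1 genes had a peak in each list. In both lists at once it was 6 of 18 and 3 of 13. The lists of genes are short, and the difference between the sectors was not tested. Vha100-2 encodes a form of the a subunit, through which protons enter and leave the membrane (3R:18390323-18399169). It had 2 peaks in each list. The stronger lay inside the gene, with a strength of 82.0 in wt males (3R:18396920-18397617) and 141 in M1[wt] males (3R:18396915-18397664), and its summits were 21 bases apart. The weaker lay just past the higher-coordinate end, with 30.5 and 56.8. Both summits also lay inside Vti1b, a gene for a protein of vesicle fusion that overlaps Vha100-2, so these peaks cannot be assigned to either gene.

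Vha16-1, the gene of the c subunit that forms the proton-carrying ring (2R:6625242-6633090), had 3 peaks in wt and 2 in M1[wt] males. The summit inside the gene stood at the same base in both lists, with strengths of 20.8 in wt and 41.8 in M1[wt] males. The other shared peak lay 46 and 92 bases outside the higher-coordinate end, with 26.8 and 34.4. The third wt peak, of 20.4, had no counterpart. VhaPPA1-1 encodes the related c″ subunit (3R:14902330-14904061). Its peak had a strength of 109 in wt males, rank 477, and 139 in M1[wt] males, rank 667. The summits lay 55 and 78 bases outside the higher-coordinate end, with no other gene within 1000 bases.

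VhaM9.7-b, a gene of the small e subunit (3L:21539862-21541215), had a peak of 116 in wt males, rank 457, and of 119 in M1[wt] males, rank 766. The wt summit lay at the lower-coordinate end, 2 bases inside the gene, while the M1[wt] summit lay 378 bases outside it and 37 bases from COX8, a gene of respiratory complex IV. VhaPPA1-1 and VhaM9.7-b each outranked at least 80.5% of the peaks in either list. At VhaM9.7-b the wt summit thus lay in the proton pump gene, and the M1[wt] summit between it and the respiratory chain gene.

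**Figure D2:**
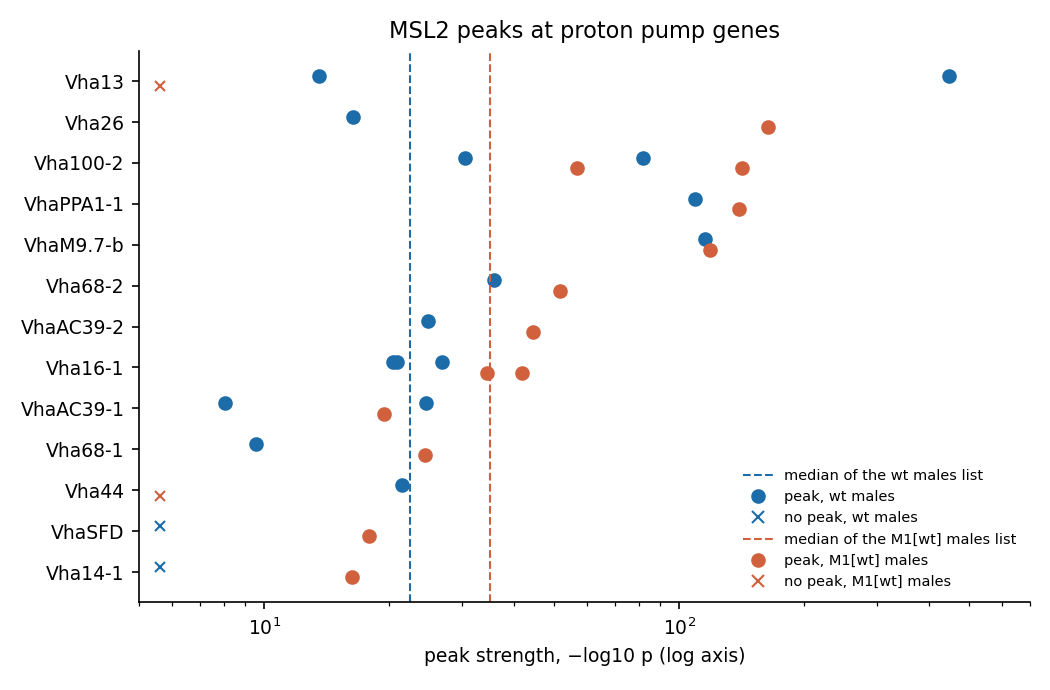
Strength of each MSL2 peak (−log10 p, log axis) at the 13 Vha genes with a peak in either list, in wt males (blue) and M1[wt] males (orange). Crosses at the left edge mark genes with no peak in that list and carry no value; dashed lines are the median strengths of the lists, 22.5 and 35.1. Vha13 reached 447 in wt males and had no M1[wt] peak.

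The X-linked d subunit gene VhaAC39-1 (X:3880748-3882967) lies 18050 bases from lncRNA:roX1, which encodes a noncoding RNA of the dosage compensation complex and held the strongest peak of each list (15312 in wt and 16196 in M1[wt] males). The d subunit joins the ring to the central rotor. The peak at VhaAC39-1 itself ranked far below it. In wt males the peak X:3880708-3881277 had 24.5 (replicate calls 34.5 and 24.5), rank 1772, with its summit 352 bases inside the lower-coordinate end. In M1[wt] males X:3880783-3881258 had 19.4 (replicate calls 19.4 and 23.7), rank 2917, with its summit 235 bases inside. Both of these summits were also within 1000 bases of CG2930. The median strongest peak of the X-linked genes with a peak was 36.2 in wt and 62.7 in M1[wt] males, above both values. A second wt peak in the gene, of 8.04, was close to the lowest strength of the list, 7.72, and had no counterpart. The other X-linked member, Vha36-3, a D subunit paralogue (X:2579091-2580560), had no peak, and the nearest summits lay 2130 bases away in wt and 2134 in M1[wt] males.

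The tissue-restricted paralogue with a peak was VhaAC39-2, the autosomal copy of the d subunit gene (3R:23158017-23159316). Its peak had a strength of 24.9 in wt and 44.4 in M1[wt] males, but the summits lay 737 and 759 bases from VhaAC39-2 and inside unk, the neighbouring gene of a zinc-finger protein. No summit lay inside any of the 15 autosomal restricted paralogues in either list (0%, exact interval 0 to 21.8%), whereas 4 of the 14 autosomal broadly used genes held one in each list (28.6%, exact interval 8.39 to 58.1%). Of all autosomal protein-coding genes 9.89% held a summit in wt and 10.4% in M1[wt] males. Among the pump genes shorter than 2099 bases, 1 of 5 broadly used and 0 of 10 restricted genes held one in wt males. In M1[wt] males it was 0 of 5 and 0 of 10. Among the longer ones it was 3 of 9 and 0 of 5 in wt, and 4 of 9 and 0 of 5 in M1[wt] males. VhaM9.7-b held one in wt males alone and VhaSFD in M1[wt] males alone, and that of Vha100-2 also lay inside Vti1b. Without a peak in either list were Vha68-3, Vha36-2, Vha36-3 and Vha14-2 of V1, and Vha100-1, Vha100-3, Vha100-4, Vha100-5, Vha16-2, Vha16-3, Vha16-4, Vha16-5, VhaPPA1-2, VhaM9.7-c and VhaM9.7-d of V0. Vha100-1, the a subunit gene of neurons, is the longest of these at 6788 bases. Its nearest summits lay 8255 and 8246 bases away, in peaks of 625 in each list. Over the 15 restricted genes without a peak, the distance to the nearest summit ran from 1237 to 61636 bases in wt males (median 9863) and from 1262 to 222157 in M1[wt] males (median 17201). The accessory subunit gene VhaAC45 and the unclassed VhaM9.7-a and VhaAC45RP had no peak either.

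Paralogues that lie side by side allow the classes to be seen in the same chromosomal surroundings. Vha68-3 lies 178 bases from Vha68-2. The Vha68-2 peak stood at the far end of the pair, 4586 bases from Vha68-3 in wt and 4604 in M1[wt] males. Vha100-4 lies 517 bases from Vha100-2, and the nearest summit to it, the one inside Vha100-2 and Vti1b, was 7506 and 7485 bases away. VhaPPA1-2 lies 2052 bases from VhaPPA1-1, with the ribosomal protein gene RpS5b between them. The summits nearest to it were on the other side, at 1237 and 1262 bases, with strengths of 35.5 and 53.6. In each of these 3 neighbouring pairs the broadly used gene was reached in both lists and the restricted one in neither at 1000 bases. The broadly used gene was also the longer of each pair, at 4286 against 2508, 8847 against 2965 and 1732 against 672 bases. The part of length was not tested. The Vha100-2 summits also lay inside Vti1b and cannot be assigned to either gene. With a reach of 2000 bases VhaPPA1-2 counts as reached in both lists. The adjacent c subunit paralogues Vha16-2 and Vha16-3, 985 bases apart and both restricted, had no summit closer than 17201 bases to either.

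**Figure D3:**
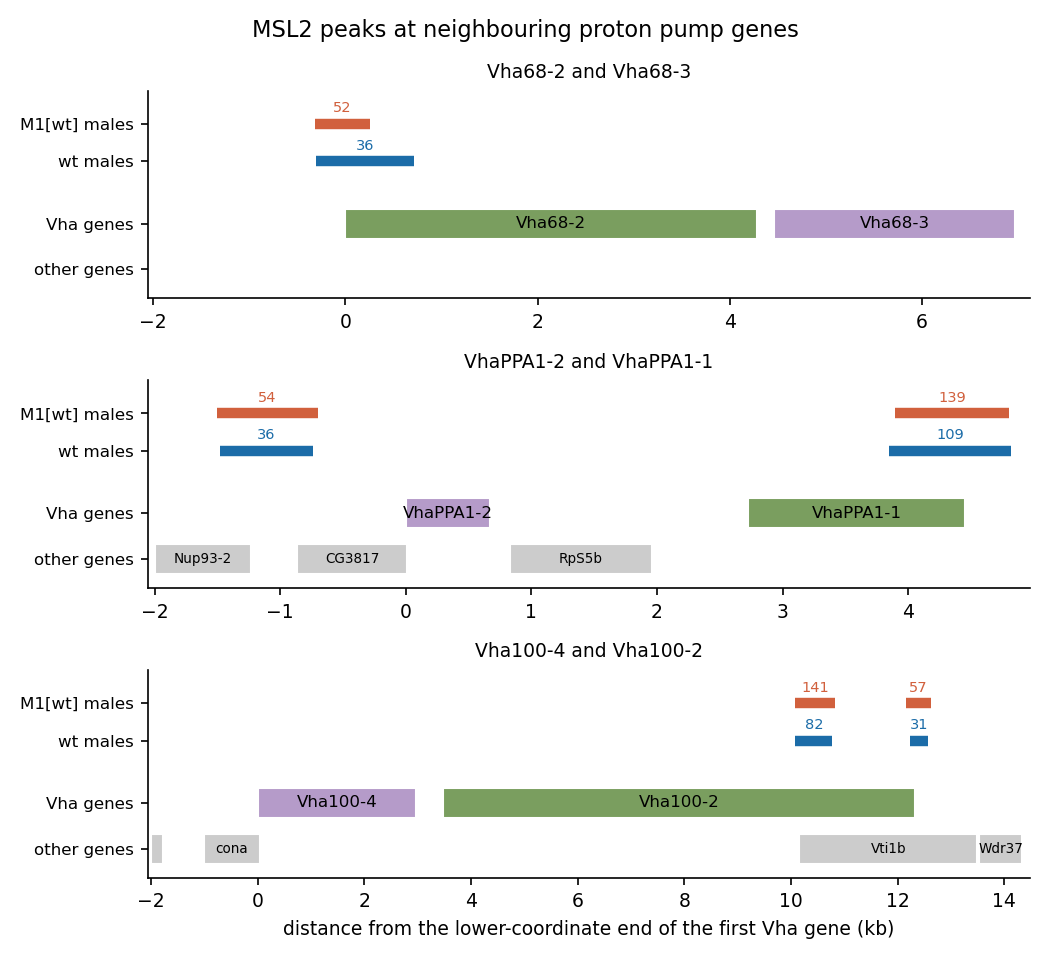
Intervals of MSL2 peaks in wt males (blue) and M1[wt] males (orange) around 3 pairs of neighbouring Vha genes, with the strength (−log10 p) above each and distances in kb from the lower-coordinate end of the first Vha gene. Green genes are broadly used, violet genes are tissue-restricted and grey genes are other protein-coding genes. No summit lay in or within 1000 bases of Vha68-3, VhaPPA1-2 or Vha100-4.

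The gene table holds no strands, so summits were placed by the gene ends with the lower and the higher coordinate, and start and end of transcription are not told apart. Of the 16 pairs of pump gene and peak in wt males, 8 had the summit within 500 bases of a gene end, and of the 13 in M1[wt] males 8 did. On the autosomes it was 7 of 14 (50%) and 7 of 12 (58.3%), against 55.2% of the pairs over all autosomal protein-coding genes in each list. Summits nearer to the higher-coordinate end numbered 10 in wt and 7 in M1[wt] males, and those nearer to the lower end 6 in each. The summit lay outside the pump gene in 9 of 14 autosomal pairs in wt and 8 of 12 in M1[wt] males. Over all autosomal protein-coding genes it was 1791 of 3269 pairs in wt and 1949 of 3545 in M1[wt] males. Another protein-coding gene was nearer to the summit than the pump gene in 5 of the 14 and 5 of the 12 autosomal pairs. The same count was not made over all autosomal genes, so it is not read as a trait of the pump genes. At 500 bases the shares near a gene end were thus close to those over autosomal genes in general. Within 200 bases it was 7 of 14 autosomal pairs in wt males (50%, against 32.4% over all autosomal genes) and 4 of 12 in M1[wt] males (33.3% against 31.8%).

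**Figure D4:**
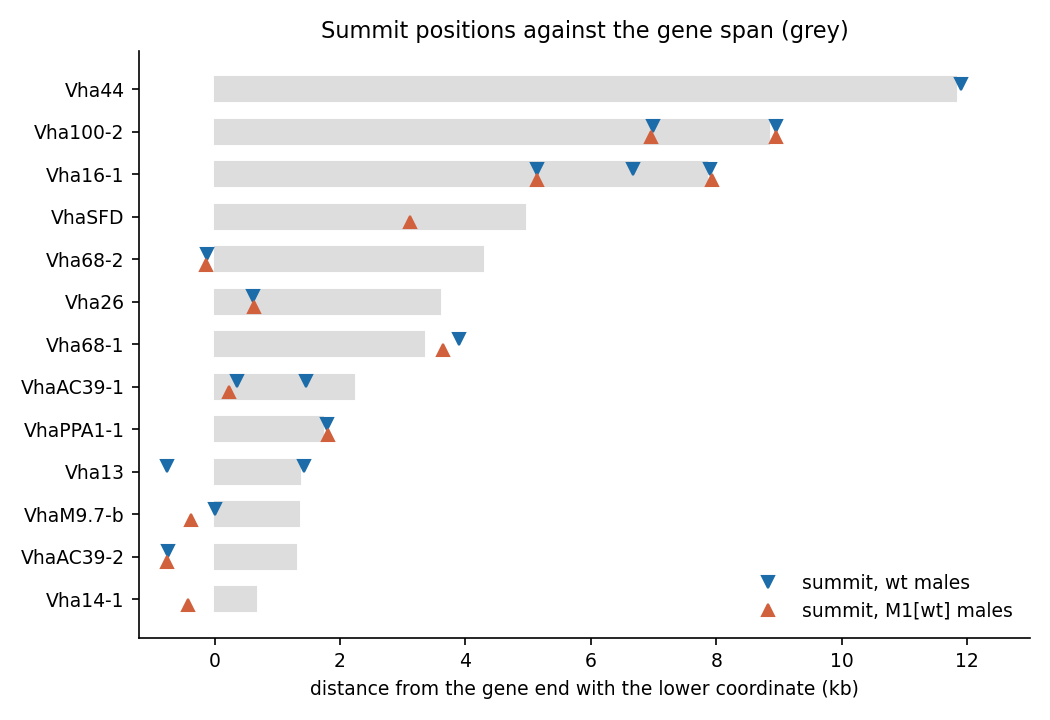
Summits of MSL2 peaks in wt males (blue, pointing down) and M1[wt] males (orange, pointing up) at the 13 Vha genes with a peak, as distance in kb from the gene end with the lower coordinate; grey bars span the genes. Within 500 bases of a gene end lay 8 of 16 wt and 8 of 13 M1[wt] summits. Vha16-1, Vha26, Vha100-2, VhaAC39-1 (wt males alone) and VhaSFD (M1[wt] males alone) held summits deeper inside.

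Of the 16 wt peaks at pump genes, 11 had an M1[wt] peak overlapping them (1 base or more), and 11 of the 13 M1[wt] peaks overlapped a wt peak. Over all peaks 74.4% of the wt list and 69.1% of the M1[wt] list overlapped one of the other list. Over the 11 shared wt peaks the summits lay a median of 22 bases apart, within 50 bases at 8 of them, and at most 380 bases apart, at VhaM9.7-b. Over all 2819 wt peaks with a counterpart the median was 19 bases and 73.6% lay within 50 bases. These distances are known only for peaks that overlap. The median strongest peak of the autosomal pump genes with a peak was 31.3 in wt and 48.0 in M1[wt] males, beside 31.2 and 44.7 over all autosomal genes with a peak.

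Genes that work with the pump were looked up from a pair of short lists. The list of assembly and regulation held 4 X-linked genes, of which 4 had a peak in wt and 3 in M1[wt] males, and 12 autosomal genes, of which 4 and 6 did. The X-linked counts stand beside 53.7% and 52.0% of all X-linked genes. Rbcn-3A and Rbcn-3B, which encode the rabconnectins that help join V1 to V0, are X-linked and had peaks in both lists. The strongest reached 32.9 in wt and 75.6 in M1[wt] males at Rbcn-3A, and 53.6 and 69.7 at Rbcn-3B. The strongest peak among these genes was at raptor, an X-linked gene of the TOR complex, with 1575 in wt and 1620 in M1[wt] males. Lamtor5 had a peak in wt males alone (32.9). On the autosomes CG7071 had 59.1 and 93.8, mtd 85.4 and 117, and RagA-B, a GTPase gene of lysosomal TOR signalling, 145 and 172. The gene mTor was reached by the same peak as Vha68-1. In M1[wt] males alone sky (31.9) and Lamtor2 (12.1) had a peak. Mitf, whose product drives transcription of lysosomal and V-ATPase genes, had none in either list. Apart from mtd, each called gene of this list shared a peak with another gene. Examples are Mipp2 at raptor and CG11970 at RagA-B.

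The list of lysosomal genes held 1 X-linked gene, the protease gene CtsB, with 212 in wt and 296 in M1[wt] males, and 10 autosomal genes, of which 3 had a peak in both lists. These were the sterol transport genes Npc1a (58.3 and 110) and Npc2a (26.7 and 34.1), and spin, a lysosomal carrier gene (32.3 and 165). Peaks of CtsB also reached amrt and rdgB, those of Npc1a reached Prosalpha6 and those of Npc2a reached Got2. At spin a peak was shared in wt males alone, with Got1. The share of autosomal lysosomal genes, 3 of 10, and of autosomal assembly genes stands beside 22.3% and 24.1% of all autosomal genes. Counts this small allow no contrast with the background.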

How the data were processed

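MSL2 was precipitated with rabbit antibodies from formaldehyde-fixed chromatin of adult flies, per the labels' protocols. The control of each list was male preimmune IgG, per the file names. The submitters' processing notes mention MACS2, deepTools, Picard, Bowtie2 and cutadapt and 2 builds (dm3, dm6) without saying what each was used for. For the peak caller, no setting is given in the sources used here. The deposited lists have 20 columns and no header, laid out as in a comparison of 2 replicate calls by irreproducible discovery rate (IDR). The −log10 p the authors deposited served as strength. Further deposited columns give the IDR as −log10 and as a scaled score, and entered no result. The labels do not say whether the replicate calls are separate libraries, and read depth is unknown.

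Peaks off chromosomes 2, 3, 4 and X (11 wt and 9 M1[wt] peaks) were left out. Genes came from an NCBI RefSeq table of Release 6 (dm6), and coordinates are 1-based. Every Vha gene is named, as are the members of the pathway lists with a peak and neighbours that share a summit with a Vha gene. The members, classes and lists were chosen with earlier results of these data known. The symbol VhaM8.9 of the class list matched ATP6AP2, which falls outside the rule. The planned split by strand and search for promoter motifs were not made, since no strands or sequences were used here. The assignment was tested on simulated data. Alternatives were other distances, the interval in place of the summit, the nearest gene alone and stricter thresholds. Python 3.11.15, pandas 2.3.3 and scipy 1.17.1 were used.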

Additional observations from a re-analysis of the deposited data

How the results depend on the processing

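Of 71 alternative values, 46 stayed inside the exact interval of the main share or within 1.5 times the main count, and 25 moved. The intervals are wide, so this count is no measure of stability. For the X-linked share the interval was 1.26 to 98.7%, and only calling neither or both genes could count as moved. The broadly used and restricted shares below are of 15 and 16 genes and include the X-linked VhaAC39-1 and Vha36-3. With summits inside the gene alone, the autosomal share was 12.9% in both lists (beside 9.89% and 10.4% of all autosomal genes). The broadly used share was 33.3% in both, and 28.6% (4 of 14) on the autosomes alone. Of the pump genes 4 of 33 were then called in both lists, beside 10.8% of all protein-coding genes. At a −log10 p of at least 50, the X-linked share was 0% in both lists (22.5% and 28.4% of all X-linked genes). The autosomal share was then 12.9% in wt and 16.1% in M1[wt] males (7.39% and 11.2% of all autosomal genes). The broadly used share was 26.7% and 33.3%. At this threshold 3 of 33 pump genes were called in both lists, beside 8.51% of all protein-coding genes. Among the 2000 strongest peaks the X-linked share in M1[wt] males was 0%, beside 34.4% of all X-linked genes. The restricted share was 0% in both lists with summits inside the gene, within 500 bases or with the interval overlapping the gene. It was also 0% with the nearest gene alone and at a −log10 p of at least 50. VhaAC39-2, whose summits lie inside unk, is no longer counted in these settings. Of all autosomal genes 19.2% in wt and 20.9% in M1[wt] males had a peak within 500 bases. With the nearest gene alone it was 14.7% and 15.8% of all autosomal genes. The broadly used share with the nearest gene alone was 53.3% (8 of 15) in wt and 46.7% (7 of 15) in M1[wt] males. Within 2000 bases the restricted share was 12.5% (2 of 16) in both lists, with VhaPPA1-2 added. The 16 include the X-linked Vha36-3, which was not reached. Of all autosomal genes 26.7% in wt and 28.8% in M1[wt] males had a peak within 2000 bases. Within 200 bases of a gene end lay 4 M1[wt] peaks in place of 8, and within 1000 bases 13 wt peaks in place of 8. Counting Vha68-1 as restricted, a setting chosen after seeing the data like the windows around gene ends, gave 64.3% of broadly used and 11.8% (2 of 17) of restricted genes in each list, against 66.7% and 6.25%. No paired analysis was possible because each group has 1 sample and the labels give no replicate numbers. Read depth is not known, so a gene without a listed peak cannot be called unbound.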

Other observations

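Several pump genes share their MSL2 summit with a gene of another function, meaning that this gene also lay within 1000 bases. Over all autosomal protein-coding genes 2033 wt peaks made 3269 pairs of gene and peak, so such sharing was not particular to the pump. The COX8 and VhaM9.7-b pair joins a respiratory chain gene and a V0 gene, and the M1[wt] summit was also within 1000 bases of Rpn10, a proteasome gene. The Vha68-1 summit was shared with mTor, the Vha14-1 summit with Gmppa, the Vha16-1 end summit with Trap1, a mitochondrial chaperone gene, and the strong Vha13 summit with the nucleoporin gene Nup58. ATP6AP2, an accessory protein gene of the pump that carries no Vha symbol (3R:9260638-9262590), had no peak in wt males and a peak of 45.5 in M1[wt] males, shared with Ibf1, an insulator protein gene.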
